A study of Mus musculus with 18 samples.

Results

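The 7 genes described here move, store and release iron or bind metal ions: the ferritin chains Fth1 and Ftl1, the transferrin receptor Tfrc, the iron exporter ferroportin (Slc40a1), heme oxygenase 1 (Hmox1) and the metallothioneins Mt1 and Mt2. They were chosen by symbol, each matched 1 Ensembl ID, and they are 7 of the 55487 gene IDs measured and 7 of the 16694 that passed the filter on low values. RNA was taken from regulatory T (Treg) cells of the mouse, the CD4+ lineage that depends on the factor Foxp3 and restrains immune responses. All cells carried the wild-type genotype, had no treatment and were freshly sorted from peripheral blood, lung, liver, bone marrow, lymph node or spleen, with 3 libraries per site and 18 in all. The series sets Treg cells of the blood beside those of 5 organs. Age, sex, sorting gates, the way cells were freed from each organ and the number of animals per library are not given in the labels. Nothing says whether libraries of a site came from separate animals or sorts, so the p-values measure only the spread between these libraries, which may be technical.

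Expression is given in TPM, the share of a library's transcripts that a gene makes up, corrected for transcript length. TPM keeps no read depth. Between 14314 and 19797 IDs were above 0 per library, fewest in liver, and the coefficient of variation over 3 replicates, as a median of genes at 100 TPM or more, ran from 2.55% in lymph node to 10.5% in liver. The labelled cell type was checked against its markers. All 20 general T cell genes and all 8 Treg genes had a mean of at least 1 TPM at every site, and mean Foxp3 ran from 88.6 TPM in blood to 238.5 TPM in lymph node. The T cell genes summed to 3366 to 3463 TPM in blood and to 5122 to 7938 TPM elsewhere. Genes of other cell types were present too, so a mean of 1 TPM does not set the labelled cells apart. All 8 B cell genes also reached it at every site. Their sums averaged 596.7 TPM in blood, 529.8 in spleen, 503.4 in bone marrow and 81.6 to 149.3 elsewhere. The 16 neutrophil and monocyte genes summed to 26465 to 27439 TPM in blood, 47296 to 47620 TPM in bone marrow, 1731 to 1798 TPM in lung and 99.9 to 865.4 TPM in the other sites. The 8 platelet genes summed to 2834 to 2942 TPM in blood and to at most 84.2 TPM elsewhere. In bulk RNA, fewer cells of a type and less RNA per cell cannot be told apart, and this holds for every value below.

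Most cells take up iron bound to transferrin through Tfrc, keep what they do not use inside the ferritin shell built of Fth1 and Ftl1 chains, and release it through ferroportin. Hmox1 opens the heme ring and frees its iron, and macrophages of spleen, liver and marrow that clear aged red cells are known for high Hmox1 and ferroportin. Iron regulatory proteins bind a stem-loop, the iron-responsive element, in several of these mRNAs: in a 5′ UTR it blocks translation when iron is low, and in the 3′ UTR of Tfrc it protects the mRNA from decay. Metallothioneins are small cysteine-rich proteins that bind zinc and copper. Their genes are switched on by the zinc-sensing factor Mtf1 and also by glucocorticoids and oxidative stress.

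The iron-responsive elements are shown first, because ferritin, ferroportin and Tfrc mRNAs carry the same loop at different ends. Transcripts of the GENCODE M21 annotation (mouse build GRCm38, called mm10) were searched, on the transcript strand only, for a C, then 5 bases, the loop letters CAGTGN, and 5 bases that pair back to the first 5 with G-T pairs allowed. Each line gives 29 bases, 5′ to 3′, with the loop letters CAGTG in capitals.
Fth1 5′ UTR, chr19:9982732-9982760, plus strand: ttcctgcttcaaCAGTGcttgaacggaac
Ftl1 5′ UTR, chr7:45459779-45459807, minus strand: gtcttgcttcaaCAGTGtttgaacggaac
Slc40a1 5′ UTR, chr1:45925465-45925493, minus strand: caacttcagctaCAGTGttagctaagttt
Tfrc 3′ UTR, first match, chr16:32631219-32631247, plus strand: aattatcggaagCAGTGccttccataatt
Tfrc 3′ UTR, the second match, chr16:32631598-32631626, plus strand: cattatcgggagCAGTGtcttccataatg
Tfrc 3′ UTR, the third match, chr16:32631663-32631691, plus strand: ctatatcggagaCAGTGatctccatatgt
Tfrc 3′ UTR, the fourth match, chr16:32631710-32631738, plus strand: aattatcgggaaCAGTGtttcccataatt
The Fth1, Ftl1 and Slc40a1 transcripts each held 1 match in the 5′ UTR, and the Tfrc transcript held 4 in its 3′ UTR. The transcripts of Hmox1, Mt1 and Mt2 held 0, which says only that these letters are not in them. Across the annotation, 565 of 58797 coding transcripts (0.961%) and 294 of 21901 coding genes (1.34%) held at least 1 match. A match is a description of the letters and shows no binding. The search asks for all 5 pairs, so an element with a mismatch there is missed and the counts, that of Tfrc included, can be too low.

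Mt1 and Mt2 are neighbours, so their promoters are shown beside each other. In GENCODE M21, Mt2 (ENSMUSG00000031762) lies at chr8:94172664-94173568 and Mt1 (ENSMUSG00000031765) at chr8:94179082-94180327, both on the plus strand, with 5513 bases between the end of Mt2 and the start of Mt1. The core letters of the metal-response element, to which Mtf1 binds, were searched as TGCACNC and TGCGCNC on both strands, and a stretch that fits both orientations is counted once per strand. Each line gives the 240 bases from -250 to -11 of the RefSeq transcript start (GRCm38.p6), 5′ to 3′, with the matches in capitals.
Mt1, chr8:94178839-94179078, plus strand: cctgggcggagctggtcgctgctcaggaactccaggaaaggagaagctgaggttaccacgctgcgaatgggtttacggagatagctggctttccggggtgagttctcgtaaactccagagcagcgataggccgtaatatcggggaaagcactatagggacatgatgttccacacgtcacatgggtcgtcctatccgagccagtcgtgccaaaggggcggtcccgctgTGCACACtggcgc
Mt2, chr8:94172368-94172607, plus strand: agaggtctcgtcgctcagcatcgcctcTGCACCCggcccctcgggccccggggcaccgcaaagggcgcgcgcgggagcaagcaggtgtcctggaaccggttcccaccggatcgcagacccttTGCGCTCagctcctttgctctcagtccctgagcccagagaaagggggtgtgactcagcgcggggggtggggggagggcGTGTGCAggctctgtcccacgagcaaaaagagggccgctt
The Mt1 stretch held 1 match and the Mt2 stretch held 3, of which the one nearest the start is on the minus strand. At least 1 match was found in 20.4% of the 32851 RefSeq promoters over the same 240 bases, and at least 3 were found in 1.18%. Over the full 300 bases of the promoter table, which run on past the start, Mt1 held 3 matches and Mt2 held 4. At least 3 were found in 1.97% of promoters of that length and at least 4 in 0.517%. The printed stretches leave out the bases around and after the RefSeq start. The 1 match printed for Mt1 is therefore not a full count, and the counts depend on the window and the start used. Of the other members in the table, neither promoter of Fth1 nor that of Ftl1 held a match, and 1 of the 2 Tfrc promoters held 2 that overlap.

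All 7 genes differed among the 6 sites by limma's F test on log2(TPM + 1), where 68% of the 16694 genes tested did so at a Benjamini-Hochberg adjusted p under 0.05. Their patterns were not alike. Ftl1 was highest in blood, Fth1 was high in blood and lung, which did not differ, and both chains were higher in bone marrow than in spleen, liver or lymph node, ferroportin and Hmox1 led in blood, Tfrc was lowest in blood and spleen (in spleen and lymph node when libraries were scaled to 20 T cell genes), and both metallothioneins led in lung. All 7 genes also differed without the 3 blood and 3 bone marrow libraries, beside 48.1% of all genes, and all 7 without the 3 liver libraries, beside 72.7%, the second set chosen after the data were seen.

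**Figure D1:**
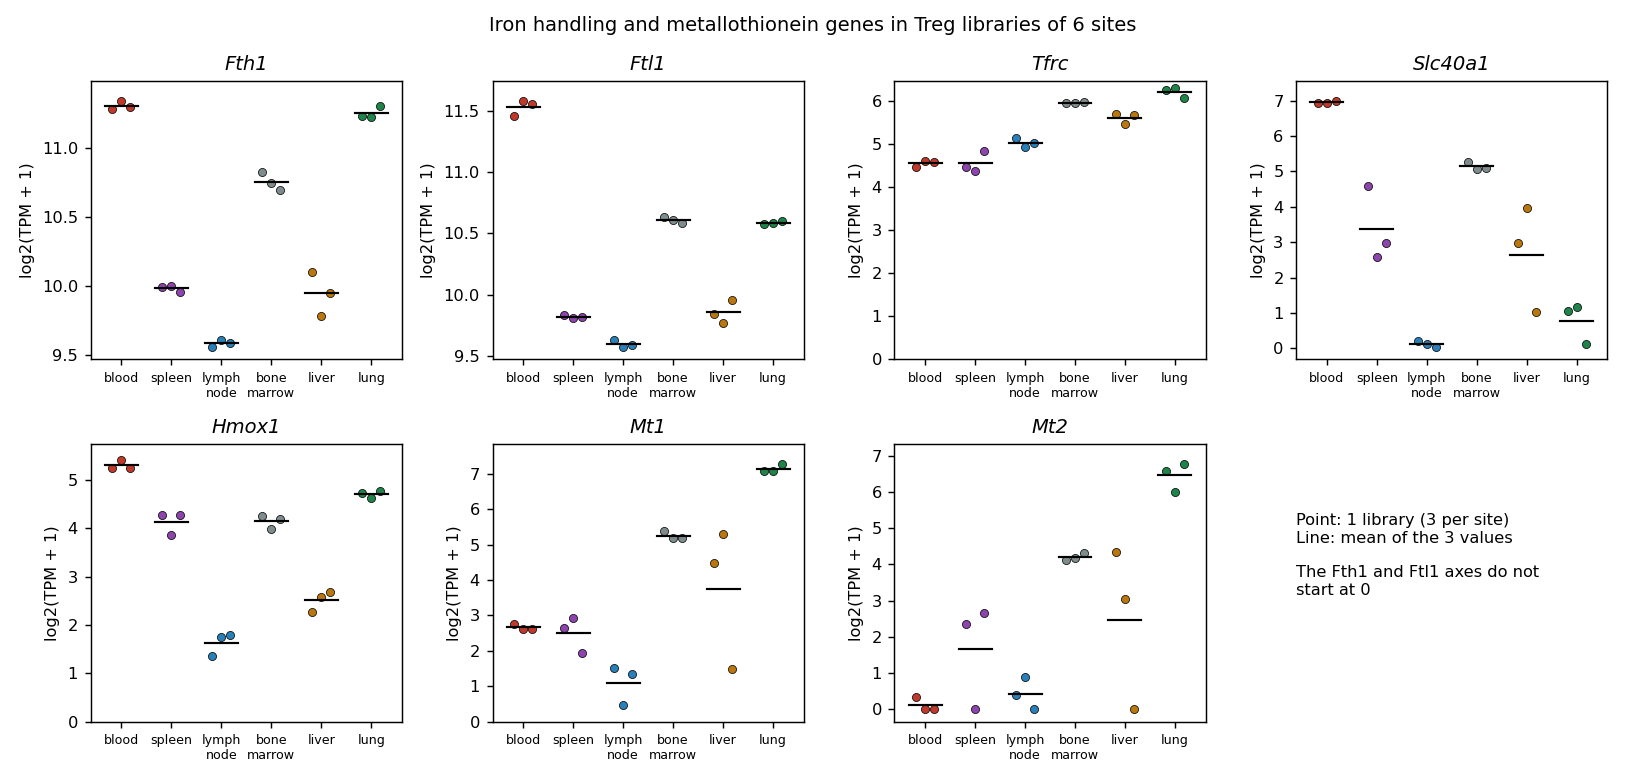
Each panel plots log2(TPM + 1) of 1 gene on the vertical axis by site on the horizontal axis; points are libraries (3 per site) and lines are their means, and the Fth1 and Ftl1 axes do not start at 0. The 3 blood libraries of Slc40a1 sit above all others, and the 3 lung libraries of Mt1 and Mt2 sit above all others.

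The storage genes were the most abundant of the 7. Fth1, the ferritin heavy chain with ferroxidase activity (ENSMUSG00000024661, chr19:9980598-9985098, plus strand), was measured at 2491, 2586 and 2513 TPM in blood and at 2402, 2389 and 2529 TPM in lung. Bone marrow gave 1815, 1713 and 1658 TPM. Spleen gave 1020, 1026 and 994.4 TPM, liver 1100, 883 and 989 TPM, and lymph node 755, 781 and 770.2 TPM. Blood and lung overlapped at the top, bone marrow stood below them, and lymph node lay below every other library. The order was blood (mean 2529.8 TPM), lung, bone marrow, spleen, liver and lymph node (mean 768.7 ± 12.8 TPM, SD, n = 3). Its neighbours blood and lung (difference 0.05 ± 0.06 on the log2 scale, SE, adjusted p = 0.506) and spleen and liver (0.04, adjusted p = 0.675) did not differ beyond their spread. Blood exceeded spleen by 1.32, lymph node by 1.72, bone marrow by 0.55 and liver by 1.36 on the log2(TPM + 1) scale (SE 0.06 each), and each of these passed the test.

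Ftl1, the ferritin light chain (ENSMUSG00000050708, chr7:45457944-45459884, minus strand), stood at 2817, 3063 and 3024 TPM in blood. Bone marrow gave 1590.1, 1562 and 1532 TPM and lung gave 1524, 1535 and 1549 TPM. Liver gave 918, 868 and 993 TPM, spleen 908, 895 and 900.2 TPM, and lymph node 788, 760.3 and 769 TPM. Here blood stood alone at the top, lung and bone marrow overlapped, and lymph node was again lowest. Blood exceeded lung by 0.95 ± 0.04 on the log2 scale (SE, adjusted p = 5.05e-11), and it exceeded the other 4 organs by 0.93 to 1.94. Bone marrow and lung (0.02, adjusted p = 0.697) and liver and spleen (0.04, adjusted p = 0.548) did not differ beyond their spread. The first pair depended on the scale: bone marrow was called higher than lung on the scale of 20 T cell genes (0.2, adjusted p = 0.00104) and lower with median-of-ratios scaling (-0.11, adjusted p = 0.0426) or with abundant RNA classes removed (-0.11, adjusted p = 0.0388). Ftl1 overlaps the gene Gm10252 on the opposite strand (9.56 to 62.0 TPM), and how strand was used in counting is not given in the sources used here. The processed copies Ftl1-ps1 (9.4 to 45.7 TPM) and Fth-ps2 (0 to 17.6 TPM) can share reads with the ferritin genes, so the split between copies is uncertain.

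The chains did not keep 1 ratio. Fth1 TPM divided by Ftl1 TPM was 1.58, 1.56 and 1.63 in the lung libraries and 0.884, 0.844 and 0.831 in the blood libraries. The means were 1.12 in spleen, 1.11 in bone marrow, 1.07 in liver and 0.996 in lymph node. Every lung library lay above every other library, and every blood library lay below every other. This ratio was chosen after its values were seen. It is therefore given as a description, with no test. A ratio within a library does not depend on how libraries are scaled. Together the chains made up 0.55% of all TPM in blood, 0.398% in lung, 0.329% in bone marrow, 0.192% in liver, 0.191% in spleen and 0.154% in lymph node.

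**Figure D2:**
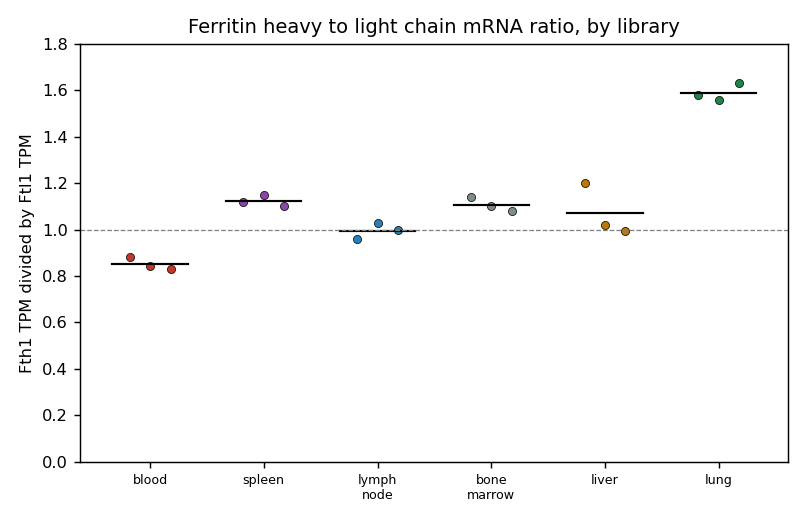
The vertical axis is Fth1 TPM divided by Ftl1 TPM (no unit) and the horizontal axis is the site; points are libraries (3 per site), solid lines are means and the dashed line marks equal TPM. Lung libraries sit between 1.56 and 1.63, above all others, and blood libraries between 0.831 and 0.884, below all others.

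Tfrc, which brings transferrin-bound iron into the cell (ENSMUSG00000022797, chr16:32608920-32632794, plus strand), ran in a different order. Lung gave 74.7, 77.4 and 65.5 TPM, bone marrow 60.1, 60.7 and 61.4 TPM, and liver 50.3, 42.7 and 49.8 TPM. Lymph node gave 33.8, 29.5 and 31.4 TPM, spleen 21.1, 19.6 and 27.6 TPM, and blood 20.8, 23.3 and 22.7 TPM. Only spleen and blood overlapped among these 6 sites. In that order, lung and bone marrow differed by 0.25 ± 0.12 on the log2 scale (SE, adjusted p = 0.103) although their libraries did not overlap, and spleen and blood by 0.02 (adjusted p = 0.946). The lead of lung over bone marrow passed with median-of-ratios scaling (adjusted p = 0.0153) and with abundant RNA classes removed (0.0185). It also passed in 1 of the 18 omissions of a library (0.0495). Bone marrow exceeded liver by 0.35 (adjusted p = 0.0316), a call lost when any 1 of the 3 bone marrow libraries (adjusted p from 0.0688 to 0.0805) or liver replicate 2 (0.107) was left out. It was also lost with median-of-ratios scaling (0.125), abundant RNA classes removed (0.194), library weights (0.133) and only the groups compared (0.0505). Liver exceeded lymph node by 0.58 (adjusted p = 0.00157). Lymph node exceeded spleen by 0.47 (adjusted p = 0.014), which was lost without spleen replicate 1 (0.0565), spleen replicate 2 (0.0699) or lymph node replicate 1 (0.0688). It was lost too on the T cell scale (0.259), with median-of-ratios scaling (0.148) and with abundant RNA classes removed (0.05).

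Whether Tfrc was low in blood depended on the scale. As deposited, blood lay below lymph node by 0.49 (log2 difference -0.49, adjusted p = 0.00387), below liver (-1.06), bone marrow (-1.41) and lung (-1.66). When each library was scaled to its 20 T cell genes, blood lay above spleen by 0.84 (adjusted p = 1.31e-05) and above lymph node by 0.6 (adjusted p = 0.000368). Under that scale the difference from liver was -0.16 (adjusted p = 0.23). Blood stayed lower than bone marrow and lung under every alternative run, with log2 differences from -1.45 to -0.93 and from -1.75 to -1.01. That scale moved the median difference of all genes to 0.72 against spleen, 0.74 against lymph node, 0.3 against bone marrow, 0.85 against liver and 0.68 against lung. The deposited scale gave 0.0, -0.15, -0.11, 0.07 and 0.12 in the same order. Set against those medians, Tfrc in blood lay within about 1 SE (0.12) of them for spleen under both scales and for lymph node under the T cell scale, and further below them for lymph node as deposited and for bone marrow, liver and lung under both. Genes called higher made up 56.9%, 43.9%, 41.0%, 59.1% and 60.5% of the calls as deposited and 95.3%, 96.8%, 79.6%, 93.0% and 87.9% under the T cell scale, in the same order of organs.

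**Figure D3:**
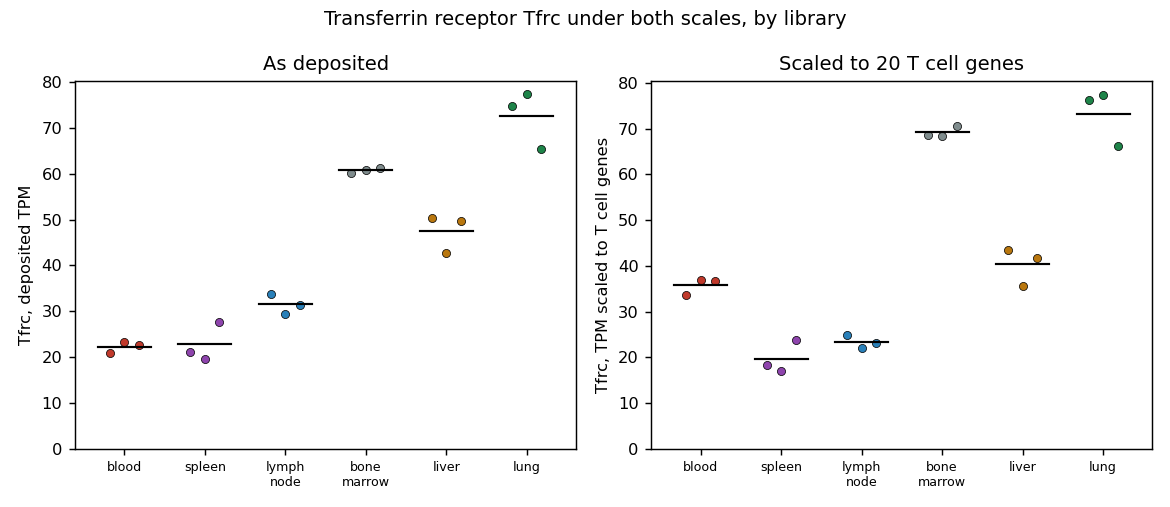
Both panels plot Tfrc by site (horizontal axis) with points for libraries (3 per site) and lines for means; the vertical axis is TPM as deposited on the left and TPM scaled to 20 T cell genes on the right, both from 0. Mean blood Tfrc is 22.3 TPM on the left, below lymph node at 31.6, and 35.8 on the right, above lymph node at 23.3.

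Tfrc is known to be high in dividing cells, and the 18 cell cycle genes were measured beside it. They summed to 247 to 263 TPM in blood, 461 to 485 in spleen, 585 to 605 in lymph node, 628 to 713 in liver, 535 to 606 in lung and 1356 to 1372 in bone marrow. By site means, Pcna alone made up most of the sum in lung (317.7 of 581.1 TPM) and in blood (135.4 of 253.1 TPM). Its mean was highest in lung and ran from 171.0 to 269.8 TPM in the other organs. As deposited, blood had the lowest cell cycle sum and, with spleen, the lowest Tfrc, while lung led in Tfrc and bone marrow in cell cycle genes. Against each organ on that scale, 15 to 18 of the 18 cell cycle genes were lower in blood and 0 were higher. Over all genes tested, 15.3% to 21% were lower and 13% to 26.4% higher. Red cell precursors also carry much Tfrc. The 11 erythroid genes measured summed to 10932 to 11970 TPM in liver, 6441 to 6623 in bone marrow, 2826 to 2993 in blood, 1852 to 1995 in spleen, 1426 to 1540.2 in lung and 73.2 to 76.1 in lymph node. Lung, first in Tfrc, was next to lowest in these genes. The part of either list in the Tfrc levels was not tested.

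Slc40a1 (ENSMUSG00000025993, chr1:45908068-45926523, minus strand) encodes ferroportin, the iron exporter of the cell surface. Blood gave 121.5, 121.9 and 125.5 TPM and bone marrow 37.8, 32.5 and 33.5 TPM. Spleen gave 22.9, 4.93 and 6.95 TPM, liver 6.82, 14.5 and 1.03 TPM, lung 1.08, 1.24 and 0.08 TPM, and lymph node 0.16, 0.08 and 0.03 TPM. Blood lay above every other library and bone marrow above all remaining ones, while spleen and liver varied many-fold between their own replicates and overlapped. Blood exceeded lymph node by 6.83 ± 0.58 (SE, adjusted p = 1.16e-07), lung by 6.18, liver by 4.31 and spleen by 3.57 on the log2(TPM + 1) scale. Its lead over bone marrow was 1.8 (adjusted p = 0.0273). That call was lost when any 1 of the 6 libraries of blood or bone marrow was left out (adjusted p from 0.0573 to 0.0727) and with a pseudocount of 0.1 (0.128). The difference of spleen from liver (0.73, adjusted p = 0.378) and of lung from lymph node (0.65, adjusted p = 0.405) was within the spread. Liver exceeded lung by 1.87 (adjusted p = 0.0212), a call lost without liver replicate 1 (0.0609), liver replicate 2 (0.101) or lung replicate 3 (0.0826). It was lost too with library weights (0.103) and with only the groups compared (0.157), and the libraries of the pair overlapped. Bone marrow exceeded spleen by 1.77 (adjusted p = 0.0378), which 8 of the 18 omissions took past the threshold (adjusted p up to 0.159, without spleen replicate 2). The call was also lost with a pseudocount of 0.1 (0.134), no filter (0.0634), median-of-ratios scaling (0.0535) and abundant RNA classes removed (0.0894).

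Hmox1 (ENSMUSG00000005413, chr8:75093621-75100589, plus strand), the inducible enzyme of heme breakdown, was at 37.0, 41.7 and 37.0 TPM in blood and 25.7, 23.7 and 26.5 TPM in lung. Spleen gave 18.3, 13.6 and 18.4 TPM and bone marrow 18.1, 14.9 and 17.2 TPM. Liver gave 3.84, 4.99 and 5.45 TPM and lymph node 1.58, 2.36 and 2.48 TPM. Spleen and bone marrow overlapped (adjusted p = 1.0), and no other pair of sites did. Blood exceeded lymph node by 3.67 ± 0.16 (SE, adjusted p = 5.17e-11), liver by 2.79, spleen and bone marrow by 1.16 each, and lung by 0.59 (adjusted p = 0.0082) on the log2 scale. The lung difference did not pass with library weights (adjusted p = 0.0534). Lung exceeded spleen by 0.57 (adjusted p = 0.0106), which was lost without spleen replicate 2 (0.0599) and with library weights (0.102).

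These 4 genes are also expressed by macrophages, and macrophage genes were present in the libraries. The 16 macrophage markers summed to 656 to 691 TPM in blood, 98.0 to 99.5 in bone marrow, 59.3 to 103 in lung, 61.5 to 70.4 in spleen, 41.7 to 64.1 in liver and 4.4 to 8.0 in lymph node. Of the 16, 14 had a mean of at least 1 TPM in blood, 10 in spleen and in liver, 9 in bone marrow, 8 in lung and 1 in lymph node. The colony-stimulating factor receptor Csf1r averaged 205.7 TPM in blood and 0.297 TPM in lymph node. Against each organ, 11 to 14 of the 16 were called higher in blood and 0 to 2 lower. Over all genes tested, 13% to 26.4% were higher and 15.3% to 21% lower. Some markers did not follow the sum. Vcam1 was lowest in blood (0.0967 TPM, against 8.28 in spleen and 8.97 in bone marrow). Spic averaged 1.41 TPM in blood, 1.56 in spleen and 1.92 in liver. Clec4f, a Kupffer cell marker, averaged 8.5 TPM in liver and was listed at 0 in all blood, spleen and bone marrow libraries. Vsig4 was listed at 0 in all spleen and lymph node libraries and Mertk in all lymph node libraries. Marco was at 0 in all bone marrow and liver libraries, and Spic in all lung libraries. By site means, blood was highest in the marker sum and in Fth1, Ftl1, Slc40a1 and Hmox1, and lymph node was lowest in all of them. Lung departed from that order in opposite ways: its marker sums ran across those of bone marrow, yet its Slc40a1 was at most 1.24 TPM against at least 32.5 TPM there, and its Fth1 was above. The 16 neutrophil and monocyte genes had far larger sums (means of 26973.2 TPM in blood and 47474.7 TPM in bone marrow), with bone marrow first. How far macrophages, monocytes or neutrophils account for the levels was not tested.

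**Figure D4:**
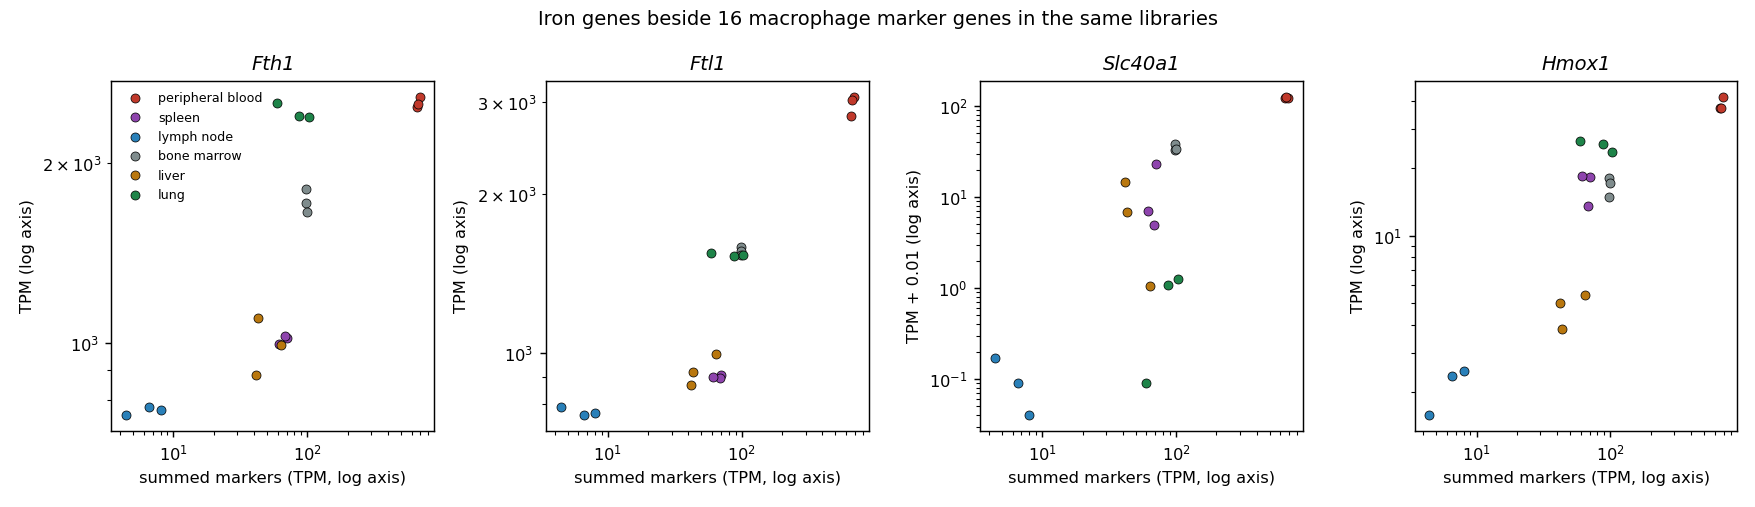
Each panel plots the TPM of 1 gene (vertical log axis; 0.01 was added for Slc40a1) against the summed TPM of 16 macrophage markers (horizontal log axis); points are the 18 libraries, coloured by site. Blood libraries lie at the upper right and lymph node libraries at the lower left of all 4 panels, and lung libraries lie high for Fth1 and low for Slc40a1.

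The metallothioneins had a separate pattern. Mt1 was measured at 133.0, 132.9 and 154.3 TPM in lung and at 41.0, 35.0 and 35.5 TPM in bone marrow. Liver gave 21.3, 38.6 and 1.8 TPM. Blood gave 5.76, 5.18 and 5.10 TPM, spleen 5.24, 6.62 and 2.81 TPM, and lymph node 1.84, 0.38 and 1.55 TPM. Lung lay far above every other library, and liver replicates ran from the level of bone marrow down to that of lymph node, with replicate 3 lowest. The 10 hepatocyte genes summed to 15.6 to 21.1 TPM in liver, 8.7 to 19.7 TPM in lung and at most 4.0 TPM elsewhere. The liver and lung sums came from different genes. Fabp1 averaged 13.3 TPM in lung, most of the sum there, and 0 in liver. Alb averaged 5.39 TPM in liver and 0.597 TPM in lung. Lung exceeded blood by 4.47 ± 0.65 on the log2 scale (SE, adjusted p = 3.47e-05), and bone marrow exceeded blood by 2.59 (adjusted p = 0.00604). The difference of blood from liver was -1.09 (adjusted p = 0.206), and without liver replicate 3 it was -2.23 (adjusted p = 6.34e-05). Bone marrow and liver (adjusted p = 0.0894), liver and blood (0.206), blood and spleen (0.896), and spleen and lymph node (0.192) were neighbours in the order that did not pass the test. The first of these pairs passed on the T cell scale (1.88, adjusted p = 0.0212) and in 1 of the 18 omissions of a library (0.0084). Spleen and lymph node libraries did not overlap, and this pair passed with library weights (0.0172), with only the groups compared (0.0372) and without liver replicate 3 (0.00409). Blood and lymph node did not overlap (1.56, adjusted p = 0.0734), and this difference passed the test in some alternatives, for example under the T cell scale (2.36, adjusted p = 0.00432) and without liver replicate 2 (0.0295) or 3 (0.000536).

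Mt2 was lower than Mt1 at each site by mean TPM, and several of its values were listed at 0, which can be failed estimates. Lung gave 95.3, 63.5 and 107.9 TPM and bone marrow 16.5, 16.99 and 18.9 TPM. Liver gave 19.4, 7.29 and 0 TPM, spleen 4.10, 0 and 5.30 TPM, lymph node 0.31, 0.87 and 0 TPM, and blood 0.28, 0 and 0 TPM. Lung stood above all others, as for Mt1, bone marrow came next, and liver again fell from high to 0 among its replicates. Lung exceeded blood by 6.34 ± 0.83 (SE, adjusted p = 1.12e-05) and bone marrow exceeded blood by 4.09 (adjusted p = 0.00119) on the log2(TPM + 1) scale. Liver exceeded blood by 2.35 (adjusted p = 0.0339). That call did not pass without any 1 of the 3 blood libraries, liver replicate 1 or liver replicate 2 (adjusted p from 0.0613 to 0.166). It did not pass with a pseudocount of 0.1 (0.0729), no filter (0.0573), library weights (0.0611) or only the groups compared (0.148) either, and the libraries overlapped. The pairs bone marrow and liver (adjusted p = 0.121), liver and spleen (0.513), spleen and lymph node (0.399), and lymph node and blood (0.827) did not differ beyond their spread. Bone marrow and liver passed on the T cell scale (2.06, adjusted p = 0.039) and in 1 of the 18 omissions of a library (0.0145). Without liver replicate 3, liver exceeded spleen in Mt2 by 2.03 (log2 difference of spleen from liver -2.03, adjusted p = 0.0203).

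The lead of lung over bone marrow was 1.88 for Mt1 (adjusted p = 0.0283) and 2.25 for Mt2 (adjusted p = 0.038), with no overlap of libraries. Leaving out any 1 of the 6 libraries of lung or bone marrow raised the adjusted p to between 0.055 and 0.0691 for Mt1 and between 0.0504 and 0.0947 for Mt2. A pseudocount of 0.1 gave 0.0634 and 0.287. Mt3 was above 0 in 6 libraries, at up to 6.53 TPM, and Mt4 in 0. The antisense gene Gm45774, which overlaps Mt2, reached 0.94 TPM.

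Lung libraries also held RNA of lung epithelium, a tissue in which metallothioneins are expressed. The 8 lung epithelium genes summed to 229 to 306 TPM in lung and 16.4 to 31.4 TPM elsewhere, with 7 of the 8 at a mean of at least 1 TPM in lung. Most of that sum was 1 gene. The club cell secretoglobin Scgb1a1 averaged 225.3 ± 34.8 TPM (SD, n = 3) in lung and at most 0.443 TPM at any other site. Sftpc averaged 20.1 TPM and Scgb3a2 7.98 TPM in lung, while Ager was lowest there (2.24 TPM against 9.2 to 17.4 TPM) and Epcam, at 4.02 TPM, lay within its range at the other sites (1.73 to 11.3 TPM). In bone marrow, where Mt1 and Mt2 came second, Scgb1a1 and Sftpc, the surfactant gene of alveolar cells, were listed at 0 in all 3 libraries. The part of epithelial RNA in the lung values was not tested.

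Blood was then set against each organ for all 7 genes. The 5 comparisons share the 3 blood libraries, so they are not independent. Against spleen, 4 of the 7 were higher in blood and 0 lower, where 20.1% of all genes tested were higher and 15.3% lower. Against lymph node, 4 were higher and 1 lower, with 16.4% and 21% of all genes. Against bone marrow, 4 were higher and 3 lower, with 13% and 18.8%. Against liver, 4 were higher and 2 lower, with 23.3% and 16.1%. Against lung, 3 were higher and 3 lower, with 26.4% and 17.3%. The 4 higher genes were Fth1, Ftl1, Slc40a1 and Hmox1 each time, except that Fth1 was not called against lung. With libraries scaled to T cell genes, most genes moved up in blood: 9306 of 16984 (54.8%) were called higher against spleen, 9665 (56.9%) against lymph node, 10505 (61.9%) against liver and 9004 (53%) against lung. Fth1 then passed against lung (0.72, adjusted p = 1.03e-07), close to the median of 0.68 over all genes. Against spleen 5 of the 7 were called, with Tfrc higher (0.84, beside a median of 0.72), and against lymph node 6, with Tfrc (0.6) and Mt1 (2.36) higher. Against liver 5 were called, and Tfrc was no longer among them (-0.16). As deposited, the median of the 7 differences was 1.16 for spleen, 1.72 for lymph node, 0.55 for bone marrow, 1.36 for liver and 0.05 for lung.

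**Figure D5:**
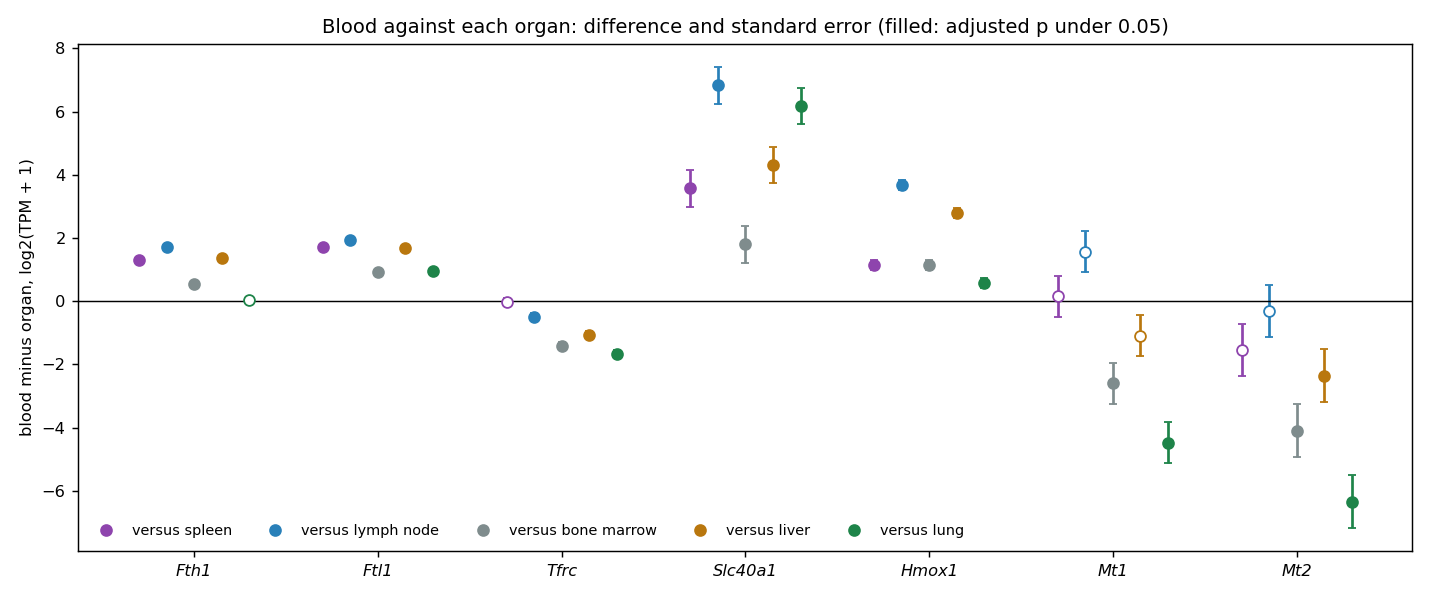
The vertical axis is the blood mean minus the organ mean of log2(TPM + 1) for each gene on the horizontal axis; colours mark the organ, bars are standard errors from the limma fit, and filled points have an adjusted p under 0.05. Slc40a1 reaches 6.83 above 0 for lymph node, and Mt2 lies at -6.34 for lung.

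Across the 18 libraries, log2(TPM + 1) of Fth1 and Ftl1 gave a Pearson r of 0.914, Mt1 and Mt2 0.902, Fth1 and Hmox1 0.872, and Ftl1 and Hmox1 0.823. Tfrc went with Mt2 (0.821) and Mt1 (0.761) rather than with Ftl1 (-0.021). These are descriptions, since the libraries share their site, their scale and RNA of other cells. Among the 9396 other genes of at least 10 TPM at a site, the 3 most like each gene were ranked by r over the same 18 libraries. For Fth1 these were Tlr2 (0.978), Nudt4 (0.973) and Cd14 (0.972), and for Ftl1 Fn1 (0.984), Plek (0.983) and Clec7a (0.98). Slc40a1 was most like Btk (0.959), Naip5 (0.935) and Nfe2 (0.935), and Hmox1 most like Itgax (0.928), Lyn (0.927) and Ccl6 (0.924). Tlr2, Cd14, Clec7a and Itgax are surface receptors known from myeloid cells. Cd14, for example, averaged 91.3 TPM in blood and 0.177 TPM in lymph node. Tfrc was most like Runx3 (0.952), Glrx (0.945) and Lmnb1 (0.945), which encode a T cell transcription factor, a glutaredoxin and lamin B1. Mt1 was most like H3f3b (0.933), Cables1 (0.927) and Il7r (0.916), and Mt2 most like Dbf4 (0.919), Phlpp1 (0.913) and Hip1r (0.91). H3f3b, a gene of the replacement histone H3.3, averaged 1992 TPM in lung, 1327 in bone marrow and 495 to 894.4 elsewhere.

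Genes of related pathways were counted in the same fit, and their counts are read against the shares over all genes: 68% by the F test, 20.1% higher and 15.3% lower in blood against spleen, 16.4% and 21% against lymph node, 13% and 18.8% against bone marrow, 23.3% and 16.1% against liver, and 26.4% and 17.3% against lung.

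Of the 15 other genes of iron uptake and transport, 14 were tested and 12 differed among the sites. In blood, 7 were higher and 0 lower than in spleen, 8 and 1 for lymph node, 4 and 5 for bone marrow, 7 and 1 for liver, and 6 and 2 for lung. Their median differences were 0.56, 1.41, -0.24, 0.72 and 0.35, beside the medians of 0.0, -0.15, -0.11, 0.07 and 0.12 over all genes. Transferrin itself (Trf) averaged 158.7 TPM in blood and 134.9 TPM in lung (adjusted p = 0.487), against 1.35 to 26.9 TPM at the other sites. The phagosomal metal transporter Slc11a1 averaged 104.7 TPM in blood, 26.5 in lung, 28.1 in bone marrow and at most 4.11 elsewhere. Lcn2 and Ltf, the iron-binding proteins lipocalin 2 and lactoferrin of neutrophil granules, reached 2159 and 2283 TPM in bone marrow, where neutrophil genes were highest, and 185.9 and 30.4 TPM in blood. Mcoln1, a lysosomal channel, ranged from 48.5 TPM in liver to 84.0 TPM in lymph node.

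Of the 15 genes that control, chaperone or use iron, 11 were tested and 10 differed among the sites. In blood, 6 were higher and 2 lower than in spleen, 3 and 3 for lymph node, 3 and 5 for bone marrow, 4 and 2 for liver, and 2 and 2 for lung. Their median differences were 0.39, -0.03, -0.15, 0.47 and 0.16. Fbxl5, the iron-sensing ubiquitin ligase subunit that removes iron regulatory proteins, averaged 136.7 ± 3.84 TPM (SD, n = 3) in blood and 44.2 to 78.6 TPM in the organs, and it was higher in blood in all 5 comparisons. Ncoa4, the receptor that takes ferritin to the lysosome, averaged 92.4 TPM in bone marrow, 90.7 in lung, 71.0 in blood and 49.1 to 68.6 elsewhere. The iron chaperones Pcbp1 and Pcbp2 varied less, from 170.7 to 230.6 TPM and from 412.3 to 677.4 TPM. The glutaredoxin Glrx5, which serves iron-sulfur cluster assembly, was lower in blood than in bone marrow (-1.23), and ceruloplasmin (Cp) stayed at a mean of at most 1.56 TPM. Aco1, the first iron regulatory protein, was the tested gene that did not pass (adjusted p = 0.105), and the second, Ireb2, averaged 41.9 TPM in blood and 21.9 to 37.6 TPM elsewhere. Aco1 and Ireb2 lie outside the naming rule and were chosen after their values were seen.

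Of the 18 genes of heme synthesis, transport and breakdown other than Hmox1, all 17 tested differed among the sites. In blood, 3 were higher and 4 lower than in spleen, 5 and 4 for lymph node, 2 and 9 for bone marrow, 7 and 3 for liver, and 8 and 3 for lung. Their median differences were -0.03, 0.02, -0.78, 0.27 and 0.75. The constitutive oxygenase Hmox2 stayed between 45.6 and 75.4 TPM by site mean, a narrower range than the 2.14 to 38.6 TPM of Hmox1. Erythroid Alas2, the first enzyme of heme synthesis in red cell precursors, averaged 40.9 TPM in liver and 35.3 in bone marrow. The sums of erythroid genes were highest in those libraries too. Hmox1 did not follow that order, since liver was next to lowest for it. Alad and Blvrb were highest in bone marrow (88.3 and 60.2 TPM) and lowest in lung (7.28 and 2.71 TPM). Cpox averaged 97.8 TPM in liver and 87.0 in bone marrow, while Urod and Ppox averaged 88.2 and 74.9 TPM in bone marrow and 27.7 and 26.8 TPM in lung. The heme-sensing repressor of Hmox1, Bach1, chosen after its values were seen, averaged 54.6 ± 2.56 TPM (SD, n = 3) in blood and 7.67 to 14.9 TPM in the organs.

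Of the 22 zinc and copper genes other than Mt1 and Mt2, 19 were tested and 17 differed among the sites. In blood, 6 were higher and 2 lower than in spleen, 4 and 1 for lymph node, 6 and 3 for bone marrow, 7 and 2 for liver, and 5 and 3 for lung. Their median differences were 0.21, -0.03, 0.17, 0.4 and 0.19. Slc30a1, the zinc exporter of the cell surface and a known Mtf1 target like the metallothioneins, averaged 30.3 ± 2.34 TPM (SD, n = 3) in lung and 6.03 to 10.9 TPM elsewhere. Blood lay below lung in Slc30a1 by 1.39 (log2 difference -1.39, adjusted p = 0.000116). Mtf1, chosen after its values were seen, averaged 30.5 ± 7.81 TPM (SD, n = 3) in lung and at most 19.9 TPM elsewhere. The zinc importers Slc39a10 and Slc39a7 had their lowest means in lung, at 3.20 and 70.9 TPM. Among copper genes, superoxide dismutase 1 (Sod1) was highest in lung (603.5 TPM), its chaperone Ccs highest in spleen (170.3 TPM), and Atox1 and Atp7a highest in blood (175.1 and 18.6 TPM). In lung, then, Mt1, Mt2, Slc30a1 and Sod1 each had their highest mean, whereas bone marrow, second in both metallothioneins, averaged 7.26 TPM for Slc30a1.

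Of the 18 oxidative stress genes of the Nrf2 pathway, which also acts on Hmox1 and the ferritin genes, 17 differed among the sites, and Nqo1, named after its values were seen, did not pass (adjusted p = 0.0979). In blood, 11 were higher and 0 lower than in spleen, 11 and 3 for lymph node, 5 and 3 for bone marrow, 10 and 1 for liver, and 10 and 4 for lung. Their median differences were 0.75, 0.68, 0.09, 0.66 and 0.36. Glutathione reductase (Gsr) averaged 317.6 TPM in blood, 153.1 in bone marrow and 24.0 to 36.7 elsewhere. Taldo1, of the pentose phosphate pathway, averaged 682.9 TPM in blood and 131.2 to 359.4 TPM in the organs. Sulfiredoxin (Srxn1) averaged 24.3 TPM in blood and 10.2 in lung, and the cystine transporter Slc7a11 averaged 4.38 and 3.49 TPM there, against at most 4.74 and 2.32 TPM at the other sites. The autophagy receptor Sqstm1 was highest in lung, at 453.5 TPM against 156.4 to 246.4 TPM elsewhere. Gpx4 ranged from 240.5 to 405.8 TPM and Prdx1 from 180.1 to 257.5 TPM.

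Of the 12 glucocorticoid response genes, 11 differed among the sites. In blood, 8 were higher and 2 lower than in spleen, 7 and 2 for lymph node, 2 and 7 for bone marrow, 2 and 8 for liver, and 3 and 7 for lung. Their median differences were 0.72, 0.72, -0.47, -0.76 and -0.84. Sgk1 and Il7r had their highest means in lung, at 154.7 and 459.5 TPM, against at most 63.8 and 235.2 TPM elsewhere, and so did Errfi1, at 44.1 TPM. Tsc22d3, the leucine zipper gene GILZ, was highest in blood (475.2 TPM) and averaged 407.7 TPM in lung. Dusp1 and Cxcr4 were highest in bone marrow, at 1200.5 and 619.8 TPM, and lowest in lymph node, at 115.6 and 54.7 TPM. The part of glucocorticoids, zinc or oxidative stress in the metallothionein levels was not tested.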

How the data were processed

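Each library has 1 table of TPM values, deposited by the authors, for 55487 Ensembl IDs. STAR, RSEM and mm10 are named per the submitters' processing notes; annotation and strand setting are not given in the sources used here. Poly(A) RNA libraries were made with a strand-specific kit, per the labels' protocols. Symbols and coordinates came from GENCODE M21 (55141 IDs matched), promoters from RefSeq (GRCm38.p6; 5 of the 7 genes matched).

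The 16694 genes that reached a mean of 1 TPM at any site were tested with limma 3.58.1 (R 4.3.3) on log2(TPM + 1), which understates changes of low genes. One mean per site was fitted over all 18 libraries (eBayes, trend and robust), giving an F test and all 15 pairs of sites, with Benjamini-Hochberg adjustment over all genes of each comparison and a threshold of 0.05. The script was tested on simulated data. As the unit was TPM, the count test provided for was not used.

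The 7 genes and the lists were chosen with earlier results of these data known. Besides the 7, the text names per gene the 3 with the highest r, and per list the 4 with the highest mean and the 4 with the largest range of site means, and of the marker lists some genes of high level. A few genes that this rule names are not reported here. Alternatives covered pseudocount, filter, 3 scalings (T cell genes, median of ratios, removal of abundant RNA classes), library weights, a replicate block, fits of only the groups compared and omission of each library.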

Additional observations from a re-analysis of the deposited data

How the results depend on the processing

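TPM keeps no depth, and values near 0 (Mt2, and Slc40a1 outside blood and bone marrow) are the least precise. Of 3029 recomputed values of the 7 genes, 2903 kept direction and side of the threshold, 80 lost the call, 26 gained it and 20 changed sign. All 7 passed the F test in every alternative that gave one. The fit of only the groups compared gave no value for Slc40a1 in lymph node against lung and Mt2 in blood against lymph node, which its filter removed. The cause was not tested for the changes below.

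On the T cell scale, the sign of Tfrc turned for blood against spleen (0.84) and lymph node (0.6). With median-of-ratios scaling it turned for Tfrc in blood against spleen (0.05), Hmox1 in spleen against bone marrow (0.09) and Ftl1 in bone marrow against lung (-0.11). With mitochondrial, ribosomal protein and haemoglobin genes removed it turned for Fth1 in blood against lung (-0.02), Hmox1 in spleen against bone marrow (0.2), Ftl1 in spleen against liver (0.04) and Ftl1 in bone marrow against lung (-0.11). Of these, Tfrc on the T cell scale and Ftl1 under both other scalings passed the test. Leaving out 1 library turned signs in 7 differences, with ranges of -0.11 to 0.12 for Tfrc and -0.12 to 0.38 for Mt1 in blood against spleen, and -0.08 to 0.13 for Hmox1 in spleen against bone marrow. In spleen against liver they were -0.04 to 0.12 for Fth1, -0.08 to 0.01 for Ftl1, -0.08 to 1.39 for Slc40a1 and -2.03 to 0.14 for Mt2.

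Over all genes, the F test called 11348 and, without blood and bone marrow, 7547. Blood against spleen called 5912 and, on the T cell scale, 9764. Blood against lymph node called 6249, against 9989 on the T cell scale, 10167 with library weights and 9623 with only the groups compared. Blood against bone marrow called 5308, against 8930 with weights and 8478 with only the groups compared. Blood against liver called 6580 and, on the T cell scale, 11290.

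Replicate numbers recur across sites, but nothing says that they pair libraries. Over the 45 pairs of libraries with the same number, deviations from site means correlated at -0.0345 to 0.0302, and 9 of 18 libraries correlated best with their own number. With the replicate number as a block, all 7 genes passed the F test, 11192 of all genes did so, and no call of the 7 genes changed.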
